A study of Mus musculus with 4 samples.

Results

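Fragments of the lysine tRNAs (the Lys family) were described in small RNA of bone marrow, the blood-forming tissue, from Dnmt2-/- mice (Dnmt2 KO) and wild-type mice (WT). The family was taken as every position of the Lys tables on the forward strand, which is 72 of the 1698 positions in the series and 1 of its 23 tRNA families. Both groups had 2 libraries, numbered 1 and 2, of total RNA from C57BL/6 mice at postnatal day 8, and the labels name no treatment and no allele other than the Dnmt2 deletion. The labels do not say whether a library is 1 animal or a pool, or whether a number marks a shared litter or day. The p-values below therefore reflect how far these 4 libraries spread, and that spread may be technical. For a single family or position they also draw on the spread of the others, which limma pools. The tables hold tRNA families alone, so neither the loss of Dnmt2 RNA nor markers of bone marrow cells were checked here. In such bulk RNA, fewer cells of a type and less RNA per cell cannot be told apart.

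A tRNA folds into an acceptor stem, a D arm, an anticodon arm and a T arm, and its anticodon, by convention numbered 34 to 36, lies in a single-stranded loop. Ribonucleases such as angiogenin, which is activated in stress, cut tRNAs in that loop and leave a 5′ and a 3′ fragment. Shorter 5′ fragments that end in the D loop are also known. Lysine is read by tRNAs with the anticodon CTT or TTT, and the TTT form carries a thiolated uridine at the wobble position, a modification it shares with isoacceptors for glutamate and glutamine. Dnmt2 methylates a cytosine in the anticodon loop of tRNAs for aspartate, glycine (GCC) and valine (AAC), and lysine tRNAs are not among its known targets. RefSeq names 26 nuclear lysine tRNA genes in the mouse assembly GRCm38.p6, 24 with the anticodon CTT and 2 with TTT. The Lys table pools them, so the isoacceptors were not separated here. How its rows map to the conventional numbers is not stated, so arms and anticodon are located only approximately below.

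Coverage is the number of reads that span a position, divided in the deposited tables by 1 constant per library. Every value was a whole multiple of the smallest step of its library, and coverage is given as reads where it is divided by that step. The highest position of Lys held 6757 and 17640 reads in Dnmt2 KO libraries 1 and 2, and 15303 and 21500 reads in WT libraries 1 and 2. The highest positions of all 23 families summed to between 220277 and 423186 reads per library. Because 1 read counts at each position it spans, a share of summed coverage is not a share of reads, and no binomial interval is given for it.

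Lys coverage came almost wholly from the 5′ side of the anticodon. Positions 1 to 34 held 95.6% and 95.9% of the family total in the Dnmt2 KO libraries, and 95.1% and 95.9% in the WT libraries. The highest position was 13 in all 4 libraries. Position 33, just before the anticodon, was the last to hold at least 50% of that height in any of them. Positions 37 to 72, on the 3′ side, held 2.72% and 2.79% of the total in Dnmt2 KO and 3.21% and 2.63% in WT. The groups overlapped in each of these shares.

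**Figure D1:**
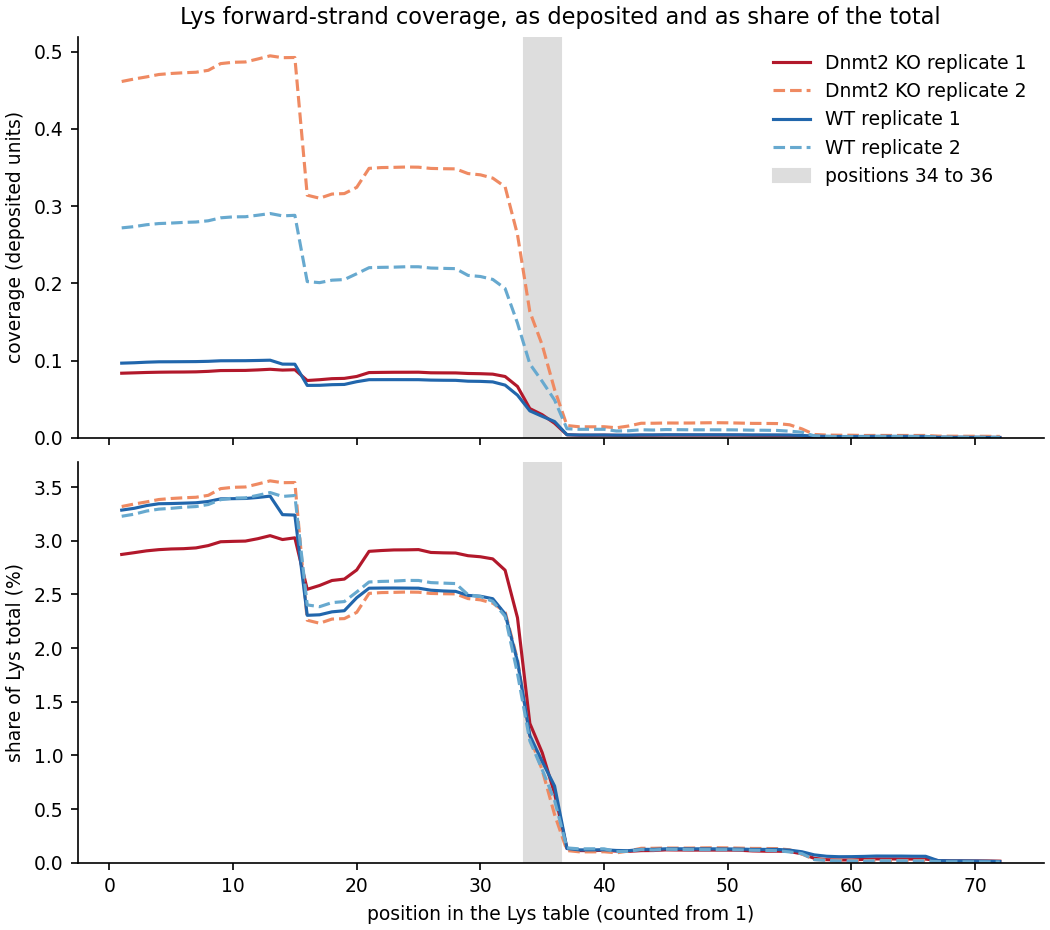
Lys coverage along the 72 positions of its table, above in deposited units and below as percent of each library's Lys total (red and orange, Dnmt2 KO; blue, WT; solid lines, libraries numbered 1; dashed lines, libraries numbered 2). The heights differ by library number, while coverage peaks at position 13, steps down after position 15 and ends across the grey band at positions 34 to 36 in all 4.

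Coverage was already near its height at the first position of the table. Position 1 held 6369 and 16455 reads in the Dnmt2 KO libraries, and 14720 and 20123 reads in the WT libraries. These are 94.3% and 93.3% of the height of position 13 in Dnmt2 KO, against 96.2% and 93.6% in WT. Coverage rises only where more reads start than end, so the summed rises give the lowest number of reads that could produce a profile. That number was 7674 and 19334 in Dnmt2 KO and 16555 and 23269 in WT. Divided into the total coverage, it limits the mean fragment length to at most 28.9 and 25.6 bases in Dnmt2 KO, and 27.1 and 26.8 bases in WT.

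A second group of starts lay in the D arm region. The largest net gains of coverage after position 1, averaged over the 4 libraries, were those on entering positions 21, 20 and 9. The gain on entering position 21 was 5.70% and 4.97% of the highest position in Dnmt2 KO, and 2.61% and 2.70% in WT. Both Dnmt2 KO libraries were the higher ones there, which was not tested. Over all families the net change between neighbouring positions was higher in both Dnmt2 KO libraries at 13.8% of 1515 steps and lower at another 13.8%, against 14 (19.7%) and 6 (8.45%) of the 71 Lys steps. On entering position 20 it was 2.78% and 1.63% in Dnmt2 KO and 3.54% and 2.59% in WT, where the groups overlapped. The gains on entering position 9 also overlapped, at 1.17% and 1.76% in Dnmt2 KO and 0.712% and 1.32% in WT. Over positions 16 to 25 together, gains came to 12.1% and 8.17% of the highest position in Dnmt2 KO, against 7.45% and 7.09% in WT. This window was not tested, and the share of other families that separate in it was not counted. In reads the gains were 820 and 1441 in Dnmt2 KO and 1140 and 1525 in WT, where the groups overlapped.

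In 3 of the 4 libraries the largest single drop of coverage followed position 15, well before the anticodon, and in Dnmt2 KO library 1 it followed position 33. The loss after position 15 was 1063 and 6359 reads in Dnmt2 KO libraries 1 and 2, and 4183 and 6352 reads in WT libraries 1 and 2. This loss was 15.7% and 36.05% of the highest position in Dnmt2 KO and 27.3% and 29.5% in WT. Coverage at position 16 stood at 84.2% and 63.8% of that at position 15 in Dnmt2 KO, and at 71.2% and 70.2% in WT. The Dnmt2 KO libraries thus lay on either side of both WT libraries, and the SD within Dnmt2 KO was 14.4 percentage points, against 0.678 in WT (n = 2 each). A smaller loss followed position 13, at 1.18% and 0.482% of the highest position in Dnmt2 KO and 5.05% and 1.05% in WT, where WT library 1 was the high one.

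The step after position 15 was not shared by all families known for 5′ fragments. The ratio of position 16 to position 15 was 100.3% and 100.4% for Glu in Dnmt2 KO and 100.4% and 100.5% in WT. For GlyGCC it was 100.1% in each of the 4 libraries, except 100.2% in WT library 2. For Val it was 89.3% and 89.1% in Dnmt2 KO, against 93.8% and 94.5% in WT. For His it was 100.1% and 101.8% in Dnmt2 KO and 100.4% and 101.8% in WT. A drop there was not particular to Lys. Ile, with fewer reads, had 30.2% and 24.0% in Dnmt2 KO and 18.2% and 15.9% in WT. Ser had 80.2% and 82.8% in Dnmt2 KO and 83.6% and 80.6% in WT. The ratio in Dnmt2 KO lay below both WT libraries in 3 of 22 families with reads at both positions (13.6%) and above both in another 13.6%. Lys was in neither group.

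**Figure D2:**
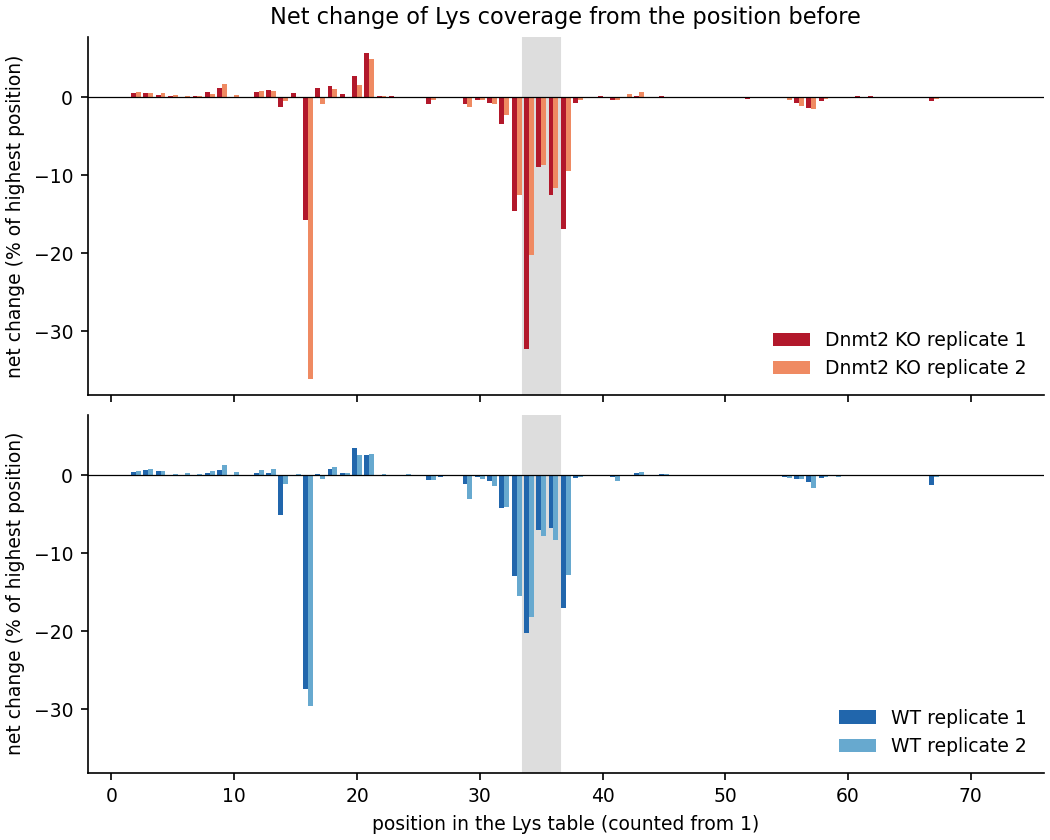
Net change of Lys coverage on entering each position from the one before, in percent of the library's highest position (above, Dnmt2 KO; below, WT; 1 bar per library). Negative bars mark net fragment ends: 1 large drop on entering position 16 and a cluster from position 33 to 37, around the grey band at positions 34 to 36; the small positive bars at positions 20 and 21 mark net starts.

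Around the anticodon, Lys fragments ended over 5 neighbouring positions rather than at 1. The loss after position 32 was 14.5% and 12.5% of the highest position in Dnmt2 KO, and 12.96% and 15.4% in WT. After position 33, next to the anticodon in the standard numbering, it was 32.3% and 20.2% in Dnmt2 KO and 20.2% and 18.2% in WT. Dnmt2 KO library 1 was the high one there, and the groups overlapped. The loss after position 34 was 8.94% and 8.70% in Dnmt2 KO and 7.06% and 7.78% in WT, and that after position 35 was 12.5% and 11.7% in Dnmt2 KO and 6.70% and 8.31% in WT. Both Dnmt2 KO libraries lost more than both WT libraries at these last 2 positions, which belong to the 6 Lys steps counted above as lower in Dnmt2 KO and were chosen after their values were seen. After position 36 the loss was 16.8% and 9.41% in Dnmt2 KO and 17.0% and 12.8% in WT, with overlap. From position 32 to position 37 the loss summed to 85.0% and 62.5% of the highest position in Dnmt2 KO, and to 64.0% and 62.5% in WT, so that Dnmt2 KO library 1 lay apart from the other 3 here as it did after position 15.

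Few fragments ran through the anticodon. Position 37 held 297 and 567 reads in the Dnmt2 KO libraries, and 600 and 866 reads in the WT libraries. Relative to position 32, where the anticodon loop begins, this was 4.91% and 4.89% in Dnmt2 KO and 5.78% and 6.05% in WT. Both Dnmt2 KO libraries were lower than both WT libraries. The same was true of 3 of 22 families (13.6%), namely Lys, Phe and Trp, and the reverse of 2, Glu and Thr (9.09%). Phe and Trp rest on few reads, with 32 and 78 at the highest position of their lowest library, against 6757 for Lys. This ratio was chosen after the profiles were seen and carries no test.

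The share of coverage in the anticodon loop, positions 32 to 38, was compared between the genotypes because cuts in this loop make the long 5′ fragments. It was 8.23% and 6.93% in Dnmt2 KO and 7.29% and 6.91% in WT, with means of 7.58% ± 0.914 and 7.10% ± 0.270 (SD, n = 2 each). The groups overlapped, whereas without overlap Dnmt2 KO was above WT in 8.7% of families and below in 26.1%. The log2 odds difference was 0.096 (SE 0.23, 95% interval −0.49 to 0.68). It did not pass limma's test across the 23 families (adjusted p = 0.928), where 0 families passed (0%). Without Dnmt2 KO library 1, which held the highest share, the difference was −0.040. The 5′ share at positions 1 to 34 averaged 95.8% ± 0.201 in Dnmt2 KO and 95.5% ± 0.555 in WT. Its groups overlapped too, while without overlap Dnmt2 KO was above WT in 4.35% of families and below in 17.4%. The difference was 0.075 in log2 odds (SE 0.66, 95% interval −1.29 to 1.44) and did not pass either (limma adjusted p = 0.928, 0% of families called). In this fit the SE ran only from 0.66 for Lys to 0.80 for Ser. It therefore measures mostly a spread pooled over the 23 families and not that of Lys alone.

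On the 3′ side, Lys coverage formed a low plateau with steps of its own. From position 38 to position 54 it stayed between 3.51% and 3.97% of the highest position in Dnmt2 KO library 1 and between 2.62% and 3.95% in Dnmt2 KO library 2. In the WT libraries it stayed between 3.32% and 3.83%, and between 3.02% and 3.795%. This plateau held 237 to 697 reads per position in Dnmt2 KO and 508 to 816 in WT. In Dnmt2 KO library 2 the highest position of the 3′ side was 49, with 697 reads, whereas in the other 3 libraries it was 37. Gains from position 38 onward summed to 62 and 245 reads in Dnmt2 KO and 112 and 192 reads in WT, or 0.918% and 1.39% of the highest position in Dnmt2 KO and 0.732% and 0.893% in WT. Some fragments therefore began 3′ of the anticodon in every library, though net gains give only their lowest number.

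The plateau ended between positions 54 and 57, in the region of the T arm. Position 57 held 38.8% and 23.3% of the coverage of position 54 in Dnmt2 KO, and 59.4% and 26.4% in WT. The libraries numbered 1 kept more coverage beyond this step than those numbered 2 in both genotypes. This ratio was chosen after the profiles were seen, was not tested, and the share of other families that separate in it was not counted. The share of the last 20 positions was lower in both libraries numbered 2 in 39.1% of families. At positions 58 to 66 coverage reached 1.20% and 0.714% of the highest position in Dnmt2 KO, and 1.86% and 0.637% in WT. A last step followed position 66, after which coverage was at most 0.696% and 0.442% in Dnmt2 KO and 0.608% and 0.326% in WT. Position 72, the last, held 34 and 63 reads in Dnmt2 KO and 55 and 47 reads in WT.

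**Figure D3:**
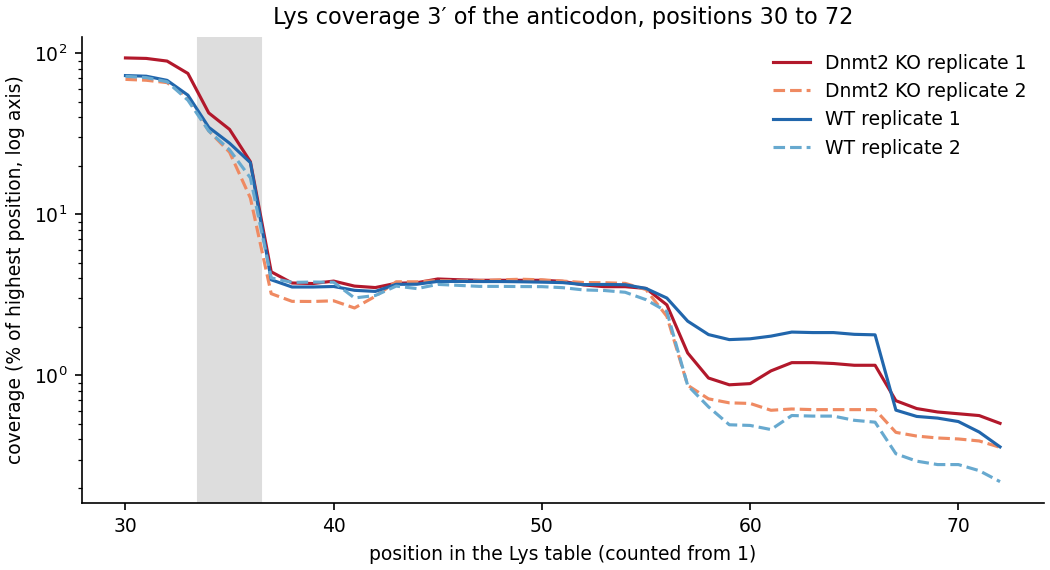
Lys coverage from position 30 to position 72 in percent of the library's highest position, on a log axis (red and orange, Dnmt2 KO; blue, WT; solid lines, libraries numbered 1; dashed lines, numbered 2). Coverage drops across the grey band (positions 34 to 36) to a plateau of about 4%, steps down between positions 54 and 57 and again after position 66, and is highest between positions 58 and 66 in WT library 1.

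The last 20 positions, 53 to 72, held 0.851% and 0.791% of Lys coverage in Dnmt2 KO and 1.20% and 0.669% in WT, with means of 0.821% ± 0.0421 and 0.932% ± 0.373 (SD, n = 2 each). The Dnmt2 KO libraries lay between the WT libraries; over all families both lay above WT in 26.1% and below in 4.35%. The log2 odds difference of −0.12 (SE 0.63, 95% interval −1.40 to 1.15) did not pass limma's test (adjusted p = 0.954, 0% of 23 families called), and it was 0.31 without WT library 1. The SE was the same for all 23 families, so it measures a pooled spread and not that of Lys alone.

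The family total, the sum of coverage over the 72 positions, was compared to ask whether marrow without Dnmt2 held more or less Lys fragment coverage. It was 2.91 and 13.9 deposited units in Dnmt2 KO libraries 1 and 2, and 2.94 and 8.42 units in WT libraries 1 and 2. The means were 8.41 ± 7.77 units in Dnmt2 KO and 5.68 ± 3.88 in WT (SD, n = 2 each). Among the libraries numbered 1 the ratio of Dnmt2 KO to WT was 0.990, and among those numbered 2 it was 1.65. For Lys the groups overlapped, whereas 21.7% of families had Dnmt2 KO above WT with no overlap and 0% below. The log2 difference was 0.35 (SE 1.04, 95% interval −2.22 to 2.93, limma adjusted p = 0.973), against a median of 0.47 over all 23 families. No family passed (0% of 23, and 0 with an unadjusted p under 0.05 in limma, the sole tool run). The sign of the Lys difference was not stable: it was −0.77 without Dnmt2 KO library 2, −0.40 without WT library 1, −0.012 after setting all libraries to one total and −0.085 after setting them to one median family. For 2 against 2 libraries the smallest two-sided p of an exact permutation test is 0.333, so none was used.

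Between library numbers, in contrast, Lys totals were far apart in both genotypes. This shift was known before the comparison was chosen, so the p-value below describes it and is no independent support. In Dnmt2 KO the total was 13.9 units in library 2 and 2.91 in library 1, a ratio of 4.78. In WT it was 8.42 units in library 2 and 2.94 in library 1, a ratio of 2.86. Both libraries numbered 2 lay above both numbered 1, as in 73.9% of families. The log2 difference of 1.89 (SE 0.49, 95% interval 0.90 to 2.87) passed limma's test (adjusted p = 0.00204). This SE was the same for all 23 families, so it measures a spread pooled over them and not that of Lys alone. Of the 23 families, 65.2% passed this comparison, all of them higher in number 2, with a median log2 difference of 1.20, so the Lys difference was 1 of many. The Lys estimate was exceeded only by those of Leu and Ser among the 23 families. With libraries rescaled to one median family it was 0.18 and did not pass (adjusted p = 0.568). It also missed the threshold without Dnmt2 KO library 1 (adjusted p = 0.106) and without WT library 1 (adjusted p = 0.125), with log2 differences of 1.88 and 1.89.

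**Figure D4:**
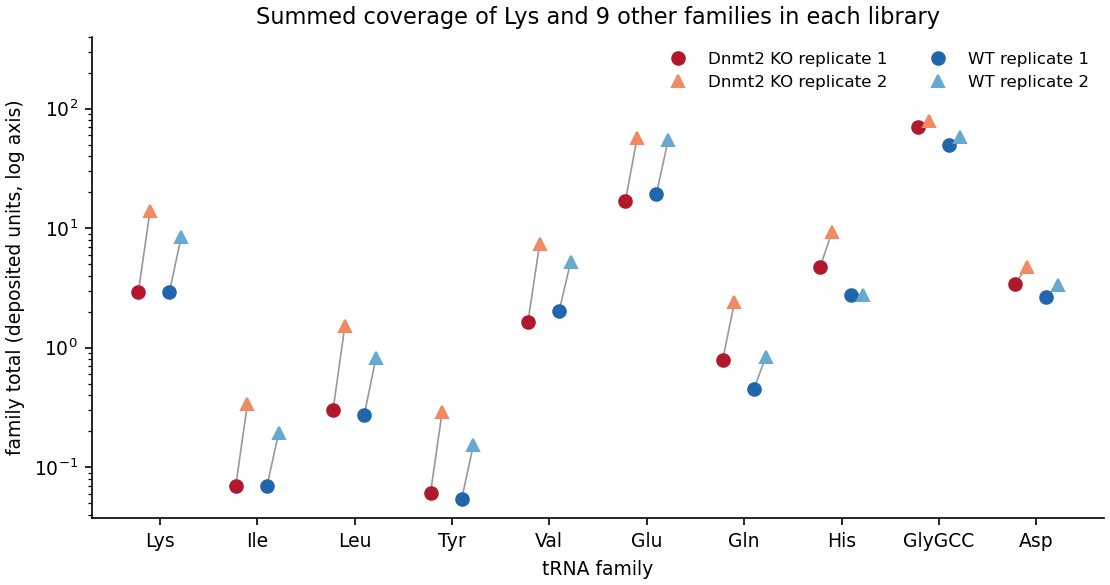
Summed coverage in deposited units on a log axis for Lys and 9 other families named in the text (red and orange, Dnmt2 KO, left; blue, WT, right; circles, libraries numbered 1; triangles, libraries numbered 2; grey lines join the libraries of 1 genotype). Lys is at 13.9 and 2.91 units in Dnmt2 KO libraries 2 and 1 and at 8.42 and 2.94 units in WT libraries 2 and 1; Ile, Leu, Tyr and Val show slopes of similar size, GlyGCC and Asp nearly flat ones.

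Lys took a larger part of all tRNA coverage in the libraries numbered 2. It made up 7.31% and 2.65% of the coverage of the 23 families in Dnmt2 KO libraries 2 and 1, and 5.87% and 3.36% in WT libraries 2 and 1. Ranked by total among the families, Lys was number 3 in both libraries numbered 2, number 6 in Dnmt2 KO library 1 and number 4 in WT library 1. With libraries rescaled to one summed total, the log2 difference between numbers was 1.13 and still passed (limma adjusted p = 0.0157). How many other families passed then, or took a larger part in number 2, was not counted. The larger part was not particular to Lys, since Leu had higher ratios of number 2 over number 1, 5.01 in Dnmt2 KO and 2.98 in WT. GlyGCC, the family with the largest total in every library, had ratios of only 1.14 and 1.17.

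Single positions followed the total. Of the 72 Lys positions, 56 passed limma's test between numbers across 1656 covered positions, all higher in number 2, where 31.6% of all positions passed. The 16 that did not pass were positions 57 to 72, beyond the step in the T arm region. Position 15 had the lowest p, with 0.493 and 0.0882 units in Dnmt2 KO libraries 2 and 1 and 0.288 and 0.0953 units in WT libraries 2 and 1 (log2 difference 2.04, SE 0.44, adjusted p = 0.0244). At 64 of the 72 positions (88.9%) both libraries numbered 2 lay above both numbered 1, against 75.3% of all positions, and at none were both below (1.09% of all). One read covers many neighbouring positions, so such counts are a description. The count of 56 was 0 without any 1 of Dnmt2 KO library 1, Dnmt2 KO library 2 and WT library 1, and 62 without WT library 2. It was 33 after setting libraries to one total and 0 after setting them to one median family. The share of all 1656 positions that passed was not counted under these alternatives, so such counts cannot be set against the other families.

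Once each position was expressed as a share of the Lys total, no position passed between numbers. In limma, 0 of 72 Lys positions passed (0% of all 1656, lowest adjusted p in Lys 0.217), and 5 had an unadjusted p under 0.05, at positions 62 to 66. Position 63 had the lowest p. It held 0.0218% and 0.0365% of the Lys total in Dnmt2 KO libraries 2 and 1, and 0.0193% and 0.0629% in WT libraries 2 and 1 (log2 difference −0.93, SE 0.28). These shares rest on 108 and 81 reads in Dnmt2 KO and 120 and 282 reads in WT. At 6 positions (8.33%, against 27% of all positions), from 10 to 15, both libraries numbered 2 had the larger share. At 21 positions (29.2%, against 24.4% of all) both had the smaller one. The 5′ share was higher in both libraries numbered 2 (34.8% of families), the loop share lower (43.5%) and the share of the last 20 positions lower (39.1%). Their log2 odds differences of 0.19 (SE 0.46), −0.18 (SE 0.26) and −0.51 (SE 0.28) did not pass limma's test (adjusted p = 0.828, 0.766 and 0.298), where 21.7%, 17.4% and 0% of families passed. The SEs of the 5′ share and of the loop share were each the same for all families, so they measure a pooled spread.

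Between the genotypes, single positions showed no call either. With limma, 0 of the 72 Lys positions passed as deposited and 0 as shares of the total (0% of 1656 in both, and 0 Lys positions with an unadjusted p under 0.05 in both). As deposited, the median log2 difference of Lys was 0.36, against 0.44 over all positions, and 70 of its 72 estimates were positive. Dnmt2 KO and WT overlapped at all 72 (17.1% of all positions had both Dnmt2 KO libraries above WT and 0.302% both below). As shares, 37 were positive and 35 negative, and their median was 0.0045 against −0.028 over all positions. Both Dnmt2 KO libraries had the larger share at 3 Lys positions (4.17%, against 14.7% of all), namely 32, 33 and 72, and the smaller share at 4 (5.56%, against 15.9%), namely 38, 39, 40 and 56. Position 72 had the lowest p in both fits. Its share was 0.0153% and 0.0127% in Dnmt2 KO and 0.0123% and 0.00754% in WT (log2 difference 0.28, SE 0.20, adjusted p = 0.959).

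The shape of the Lys profile was also compared as a whole, by the overlap of the position shares of 2 libraries, which is 100% for identical profiles. The WT libraries overlapped by 98.6%. Dnmt2 KO library 2 overlapped with WT libraries 1 and 2 by 98.3% and 98.0%. Dnmt2 KO library 1 overlapped with Dnmt2 KO library 2 by 92.5%, and with WT libraries 1 and 2 by 93.7% and 94.1%. The profile of 3 libraries was therefore nearly the same although their totals ran from 2.94 to 13.9 units, and the library that stood apart, Dnmt2 KO library 1, had nearly the total of WT library 1. It was the Lys library with the fewest reads, and it held 44.4% of its coverage at positions 1 to 15 and 49.9% at positions 16 to 33. In Dnmt2 KO library 2 these shares were 51.7% and 43.0%, and in WT libraries 1 and 2 they were 50.2% and 43.8%, and 50.2% and 44.6%. The part of depth in this difference was not tested.

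**Figure D5:**
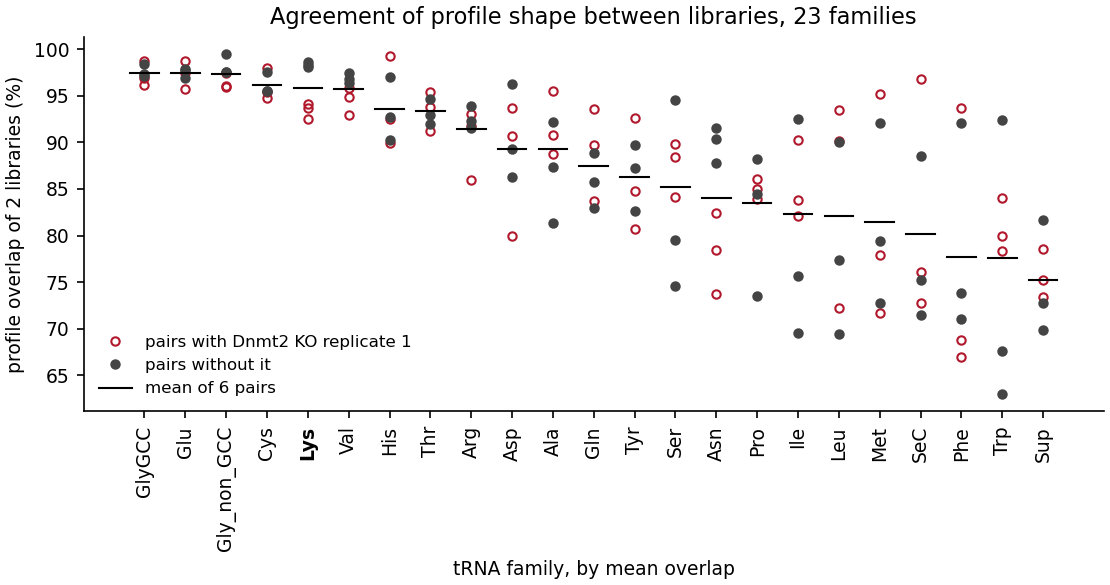
Overlap of the position shares of 2 libraries, in percent, for the 6 pairs of libraries in each of 23 families, ordered by mean (open red circles, pairs with Dnmt2 KO replicate 1; filled circles, pairs without it; bars, means). For Lys, in bold, the 3 pairs without that library lie between 98.0% and 98.6% and the 3 pairs with it between 92.5% and 94.1%.

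Over the 6 pairs the Lys overlap averaged 95.9%, the fifth highest of the 23 families, after GlyGCC, Glu, Gly_non_GCC and Cys, whose lowest mean was 96.1%. The median family had a mean of 87.4%.

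By shape, the families most like Lys were Cys, Val and GlyGCC, with profile overlaps with Lys of 92.1%, 90.3% and 90.2%, as means over 4 libraries with positions counted from the first of each table. Glu followed at 90.05%. By the course of the total over the 4 libraries, the most alike were Ile, Leu and Tyr, whose centred log2 totals differed from those of Lys by a root mean square of 0.035, 0.083 and 0.096. These 3 had lower overlaps of shape with Lys, at 43.4%, 54.7% and 63.1%. Their totals, in Dnmt2 KO libraries 1 and 2 and WT libraries 1 and 2, were 0.0693, 0.336, 0.0691 and 0.191 units for Ile, 0.302, 1.51, 0.275 and 0.819 units for Leu, and 0.0608, 0.292, 0.0541 and 0.153 units for Tyr. The 3 families nearest to Lys in shape were therefore not the 3 nearest in total, but this depends on stopping at 3. Val had rank 2 by shape and rank 4 by total, with a root mean square of 0.144. All of these values come from the same 4 libraries.

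Other families known for 5′ fragments were GlyGCC, Glu, Val and His. Between genotypes 0 of 4 rose or fell in total (median log2 difference 0.28, against 0.47 over all families). Between numbers Glu and Val were higher in number 2 past the threshold and GlyGCC and His did not pass, which is 2 of 4 where 65.2% of all families passed. Number 2 over number 1 was 3.36 in Dnmt2 KO and 2.81 in WT for Glu, and 4.47 and 2.60 for Val. For GlyGCC it was 1.14 and 1.17, and for His 1.96 and 0.995. Glu was close to Lys in its share of the anticodon loop, with 7.90% and 7.46% in Dnmt2 KO and 8.47% and 8.10% in WT, whereas GlyGCC had 2.57% and 3.66% in Dnmt2 KO and 3.28% and 4.13% in WT.

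Glu and Gln, whose isoacceptors share the thiolated wobble uridine with Lys, also did not pass between genotypes, 0 of 2 rising or falling. Both were higher in number 2 past the threshold, as were 65.2% of all families. They differed in profile, since Gln had 43.8% and 51.5% of its coverage at positions 1 to 34 in Dnmt2 KO and 48.0% and 38.4% in WT, against 96.5% and 96.4% in Dnmt2 KO and 96.5% and 97.3% in WT for Glu. Of the families with Dnmt2 targets, Asp, GlyGCC and Val, 0 of 3 rose or fell between genotypes (0% of all families; median log2 difference 0.42, against 0.47 over all). Between numbers 1 of the 3, Val, was higher in number 2 past the threshold, where 65.2% of all families were.

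The reverse strand carried almost no Lys coverage, 0.0785% and 0.0139% of the forward total in Dnmt2 KO and 0.0502% and 0.0287% in WT, with at most 6 and 3 reads at a position in Dnmt2 KO and 11 and 5 reads in WT. The groups overlapped.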

How the data were processed

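Small RNA of 2 Dnmt2 KO and 2 WT bone marrow libraries was analysed. Per the labels' protocols, total RNA was DNase-treated and end-repaired with T4 polynucleotide kinase, which makes ends with other chemistry ligatable, and the libraries were size-selected, which can under-represent very short and full-length molecules. Per the submitters' processing notes, CASAVA 1.8.3 and Bowtie were used. Not given in the sources used here are the alignment settings, the tRNA reference with its build, and how reads shared by several tRNAs were placed. The 48 deposited tables hold signal, per the file headers coverage per position, library and strand. It is scaled by 1 unexplained constant per library, on which levels between libraries depend; shares within a family are free of it. All values above 0 (100%, within 0.01 of a step) were whole multiples of 1 step per library, read here as 1 read. A floor of 3 reads corresponds to 3.94e-05, 8.41e-05, 1.97e-05 and 4.05e-05 units in Dnmt2 KO libraries 1 and 2 and WT libraries 1 and 2. Floors cover counting error only.

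Row label 0 was counted as position 1; how rows map to standard tRNA numbers is likewise not given, so the anticodon is placed approximately. A table summing the glycine tables was left out. Limma 3.58.1 in R 4.3.3 (lmFit, eBayes, two-sided, Benjamini-Hochberg, threshold 0.05) was run on log2(value + pseudocount), with 0.001 for 23 family totals and for both sides of the log2 odds, 1e-04 for 1656 covered positions and 0.01 for shares in percent. Differences on that scale understate the change of low values. Genotype or library number was the sole term. Alternatives were leaving out each library, the other factor as a term, rescaled libraries, other pseudocounts, windows and low-value filters, and the highest position instead of the sum. The named families and positions follow a rule: the 3 most alike families by shape and by total, the listed families, and the highest, first and last position, the 3 largest gains and losses and the lowest p. The other positions described around the anticodon and in the 3′ part, and the ratios between positions, were chosen after their values were seen. The family, lists and tests were chosen with earlier results of these data known. Python 3.11.15 was used for the profiles.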

Additional observations from a re-analysis of the deposited data

Results flagged for a closer look

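Several measures of Lys were screened for a difference between the libraries of one genotype that ran opposite to that in the other. The screen used the sign alone, whatever the size, and kept 3 measures of the profile. The other measures screened ran the same way in both genotypes, namely the total and the ratio of position 16 to position 15. So did the shares at positions 1 to 15, 1 to 34, 32 to 38, 34 to 36 and 53 to 72. These contrasts of 1 library against 1 were not tested. Number 2 minus number 1 was −6.86 percentage points in Dnmt2 KO and 0.785 in WT for the share at positions 16 to 33. For the share at positions 37 to 72 it was 0.0751 in Dnmt2 KO and −0.574 in WT. For the coverage at position 37 in percent of position 32 it was −0.0231 in Dnmt2 KO and 0.275 in WT.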

How the results depend on the processing

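Of 155 recomputed values, 132 kept their direction and side of the threshold (or stayed within 1.5 times the count). Another 10 turned sign, 7 lost the threshold and 6 moved further, and the cause was not tested. The 132 include values whose direction was fixed in advance, as when the other factor was added or low families were left out. Leaving out 1 library at a time, the genotype difference of the Lys total ran from −0.77 to 1.48 (log2), that of the 5′ share from −0.061 to 0.21, that of the loop share from −0.040 to 0.23, that of the share of the last 20 positions from −0.55 to 0.31 and that of position 72 as deposited from −0.091 to 1.68. The difference of the total between numbers ran from 1.52 to 2.25, that of position 15 from 1.65 to 2.42, and the count of Lys positions called between numbers from 0 to 62. The genotype difference of the total was −0.012 with one summed total and −0.085 with one median family. The 5′ share gave −0.066 with positions 1 to 30 and the loop share −0.028 with positions 34 to 40. With one median family the difference between numbers was 0.18 for the total and 0.33 for position 15. The number of Lys positions called was then 0, against 33 with one summed total. The share of all positions called was not counted after rescaling. Profile overlap averaged 91.7% when each profile was scaled to its highest position and the summed lower values were divided by the summed higher ones. This is a different formula from that of the 95.9% given above, so the change, counted among the 6 that moved further, is not one of scaling alone. With the replicate number as a block, the Lys total had the same log2 difference of 0.35 (limma adjusted p = 0.436) and no Lys call changed. In this balanced design the block cannot change the difference, only its SE and p. Deviations of same-numbered libraries from their genotype's mean correlated across families (r = 0.862), but what a number stands for is not in the labels. Where 1 library was left in a group, it was assumed to vary like the others. Positions 57 to 72 rest on the fewest reads.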
